A study of Mus musculus with 23 samples.

Results

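The genes described here make up the core machinery of translation on the array: the initiation factors whose symbols begin with Eif and a digit, the elongation factors whose symbols begin with Eef and a digit, and the aminoacyl-tRNA synthetases. They were taken from the array's platform annotation by symbol alone, using probes with a single gene symbol. The rule found 46 probes for 44 genes, out of 9596 probes and 6795 genes, and all 44 passed the coverage filter that left 6413 genes for testing. A further 6 probes carry several symbols of which at least one matches, and these were not used. The rule itself uses symbols and no measured value, but this group of genes was chosen with earlier results of these data known.

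The study compared mouse skin tumours in which TGF-beta could be switched on with tumours in which it could not. All animals were FVB mice aged 7 to 12 weeks at the start, and every one carried K5rTA, a doxycycline-dependent transactivator driven by the keratin 5 promoter, which is active in basal keratinocytes. Bigenic mice (K5rTA tetOTGFbeta) carried in addition a TGF-beta transgene under a tetracycline-responsive operator, and monogenic mice (K5rTA) did not. Both genotypes received 100 ug DMBA, a carcinogen, followed by 5 ug TPA, a tumour promoter, for 20 weeks, and both were fed doxycycline chow at 1 g per kg for 48 hours before tumours were taken. Papillomas were collected at weeks 12 to 14 and squamous cell carcinomas at weeks 25 to 35. Each of 23 arrays set the RNA of 1 bigenic tumour against 1 monogenic tumour of the same class, giving 11 papilloma pairs and 7 carcinoma pairs. A pair is written below as bigenic tumour/monogenic tumour. Of these, 3 papilloma pairs and 2 carcinoma pairs were hybridised in both dye orientations, and the labels do not say whether tumours that share a number came from the same animal.

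All values are log2 ratios of 1 tumour to the other, centred on each array's median, so 0 means that a gene stood at the middle of its array. The dye in the numerator is not given in the sources used here. Ratios were turned so that every array reads as Cy5 over Cy3 would with the bigenic tumour on top. A negative value means less RNA in the bigenic tumour if the deposited ratios are Cy5 over Cy3, and more if they are Cy3 over Cy5. The tumours are bulk tissue, in which fewer cells of a type and less RNA per cell cannot be told apart. Tgfb1, the ligand gene, was positive on all 5 papilloma arrays that measured it (0.26 to 1.97). On the 5 carcinoma arrays that measured it, it was negative on the 3 with the bigenic tumour in Cy3 (-0.88 to -0.15) and positive on the 2 with it in Cy5 (0.39 and 0.94), so it did not settle the direction.

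Translation begins when eIF2 brings the initiator tRNA to the small ribosomal subunit and eIF4E, the cap-binding protein, recruits the mRNA through the eIF4F complex, with eIF1A and the many-subunit eIF3 holding the complex on the start codon. Elongation then runs on eEF1A, which delivers charged tRNAs, and eEF2, which moves the ribosome along, while the synthetases charge tRNAs with their amino acids. Cells tune this machinery at known points: 4E-BP proteins bind eIF4E unless mTOR phosphorylates them, kinases that phosphorylate eIF2 slow initiation under stress and favour translation of Atf4, and Atf4 in turn raises many synthetase genes. In keratinocytes TGF-beta is known to restrain growth.

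Sequences around the start sites were searched for elements known from the control of translation genes, and most members did not hold them. Of the 44 genes, 34 had an entry in the RefSeq promoter table (build GRCm38.p6, 250 bases before to 50 after each start), with 39 promoters among them. Messages of the elongation factors and of many initiation factors carry a run of pyrimidines at their start through which mTOR signalling acts. The windows below run from 5 bases before to 25 after the annotated start, 30 bases in all. Those shown are the elongation factors and eIF3 subunits among the 8 genes whose window holds such a run, whatever their values. Capitals mark runs of at least 8 bases that are only C or T. The window and the run length were set after the members' sequences had been seen.
Eef1a1: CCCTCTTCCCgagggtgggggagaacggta
Eef2: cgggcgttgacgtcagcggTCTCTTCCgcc
Eef1a2: tctgcgttctcgctcactggTTCTCTCCCT
Eif3f: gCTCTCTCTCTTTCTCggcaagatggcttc
Eif3l: CTTCTTCCgCTCTCTCCCacgggcttctgg
These lie at chr9:78481700-78481729 on the minus strand for Eef1a1, chr10:81176626-81176655 on the plus strand for Eef2, chr2:181156991-181157020 on the minus strand for Eef1a2, chr7:108934410-108934439 on the plus strand for Eif3f and chr15:79075218-79075247 on the plus strand for Eif3l. Such a run stood in 8 of the 39 member promoters (20.5%) and in 10.3% of all 32851 promoters in the table. In Eef1a1, Eif3f and Eif3l a run lies across the annotated start, whereas in Eef2 and Eef1a2 it begins at bases 15 and 16 of the transcript. Eif3d, the eIF3 gene with the smallest papilloma p, has none in its window.

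The other motifs looked for were TGATGNAA, the composite element bound by Atf4 with C/EBP factors, and CACGTG, the E-box bound by Myc among others, both on either strand and with no overlap between them. TGATGNAA was found in 3 of 39 member promoters (7.69%) against 3.97% of all promoters, in Tars, Iars and Eef2k. CACGTG was found in 10 of 39 (25.6%) against 7.15% of all promoters. The windows below are shown because Tars and Iars, the synthetases for threonine and isoleucine, hold both motifs and are among the synthetases nearest to the threshold, and because Eif4e is the cap-binding factor. Capitals mark the motif, which on the printed strand reads TTGCATCA for the composite element in both genes.
Tars, composite element: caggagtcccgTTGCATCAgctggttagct
Tars, E-box: tccgcctgtggcCACGTGgcgcacgcgcag
Iars, composite element: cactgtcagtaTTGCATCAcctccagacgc
Iars, E-box: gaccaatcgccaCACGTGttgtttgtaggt
Eif4e, distal E-box: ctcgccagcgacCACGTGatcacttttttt
Eif4e, proximal E-box: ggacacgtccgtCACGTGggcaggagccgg
In Tars (chr15:11399655-11399684 and chr15:11399622-11399651, minus strand) the composite element begins 15 bases before the start and the E-box at base 20 of the transcript. In Iars (chr13:49682126-49682155 and chr13:49682049-49682078, plus strand) the composite element begins at base 8 of the transcript and the E-box 69 bases before the start. In Eif4e (chr3:138527028-138527057 and chr3:138527192-138527221, plus strand) the E-boxes begin 228 and 64 bases before the start. Mars1, the member with the smallest carcinoma p, had a promoter entry without either motif. A match is a description of these letters only.

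In papillomas 30 of the 44 genes had a fitted value on the negative side, against 46.1% of all genes tested, and their median was -0.13 against 0.02 for all genes. None passed an adjusted p of 0.05 (limma with Benjamini-Hochberg adjustment over all genes tested, background 0.0624% called). At an unadjusted p under 0.05 there were 9, all on the negative side, where the background was 9.79% in all, 5.47% on the negative side and 4.32% on the positive side. These were Eef1a1, Eif3d, Eif1ax, Eef1g, Tars, Eif1ad, Eif3l, Eef2 and Eif4e. In the papilloma pairs run in both orientations alone, which balance the dyes, 23 of 43 genes were negative with a median of -0.02, and of the 4 at an unadjusted p under 0.05 (12.7% of all genes) 1 was negative and 3 were positive. In carcinomas 28 of the 44 were negative, against 50.9% of all genes, with a median of -0.10 against -0.01. Again 0 passed an adjusted p of 0.05 (limma, background 0.0936% called), and 2 had an unadjusted p under 0.05, Mars1 and Eif4g3, both negative, where the background was 10.8% in all, 6.38% on the negative side and 4.44% on the positive side. The difference between the classes, taken as carcinoma minus papilloma, was positive for 30 genes and negative for 14, with a background of 51.8% negative, and its median was 0.08. That direction was not kept: the median was -0.03 with 25 of 44 negative when the range of experiment numbers in the labels was a fixed term, -0.06 within the second range and -0.015 in the pairs run both ways. No gene passed an adjusted p of 0.05 for it (limma, background 0.359%), and 0 had an unadjusted p under 0.05, where the background was 7.72% in all, 4.65% negative and 3.07% positive. The lowest adjusted p for it was 0.721, for Eif1ax.

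Those counts moved when single tumours were left out and when a dye term was added. Leaving out bigenic papilloma 1762D left 3 genes at an unadjusted p under 0.05 in papillomas and a median of -0.06, and leaving out bigenic 1961B, monogenic 2000D, 2000F, 257A or 257B, or the monogenic tumour of the array papilloma 14 (whose bigenic tumour is 1961B) left 5 each. Without 1762D 6.89% of all genes were at that level, and without the others 5.61% to 9.51%. The array papilloma 2, of the pair 1762D/257B, had the widest spread (SD 1.20) and without it 5 genes (7.80% of all genes) and a median of -0.08 were left. In carcinomas the count of 2 became 1 without bigenic 1684A, 1995B, 2145C, 228A or 228B or monogenic 242, 2000D, 2000F or 2000J. It became 3 without bigenic 1684B, 1961B or 236, monogenic 241A or the monogenic tumour of papilloma 14, and 4 without 257A or 257B, or without the array papilloma 2. In these carcinoma fits 5.74% to 15.6% of all genes were at that level. Both classes shared 1 estimate of the spread in the fit. Leaving out a tumour of the other class could thus move a count while the fitted values stayed the same. This was so for 257A in papillomas. In carcinomas it was so for all tumours named here but bigenic 1684A and 236 and monogenic 242, 241A and 257A, and for the array papilloma 2. With a gene-specific dye term the papilloma count was 3 in place of 9 and the carcinoma count 0 in place of 2, while the share of all genes was 6.50% in place of 9.79% and 6.24% in place of 10.8%. The papilloma count with the dye term is thus near the background. The lean of the members stayed in that fit. In papillomas 32 of 44 genes were negative with a median of -0.13, against 51.5% of all genes. In carcinomas 30 of 44 were negative with a median of -0.09, against 55.6% of all genes. In the 2 carcinoma pairs run both ways alone, 23 of 43 were negative with a median of -0.03, against 50.8% of all genes. Of the 3 members at an unadjusted p under 0.05 there (5.87% of all genes), 1 was negative and 2 were positive.

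**Figure D1:**
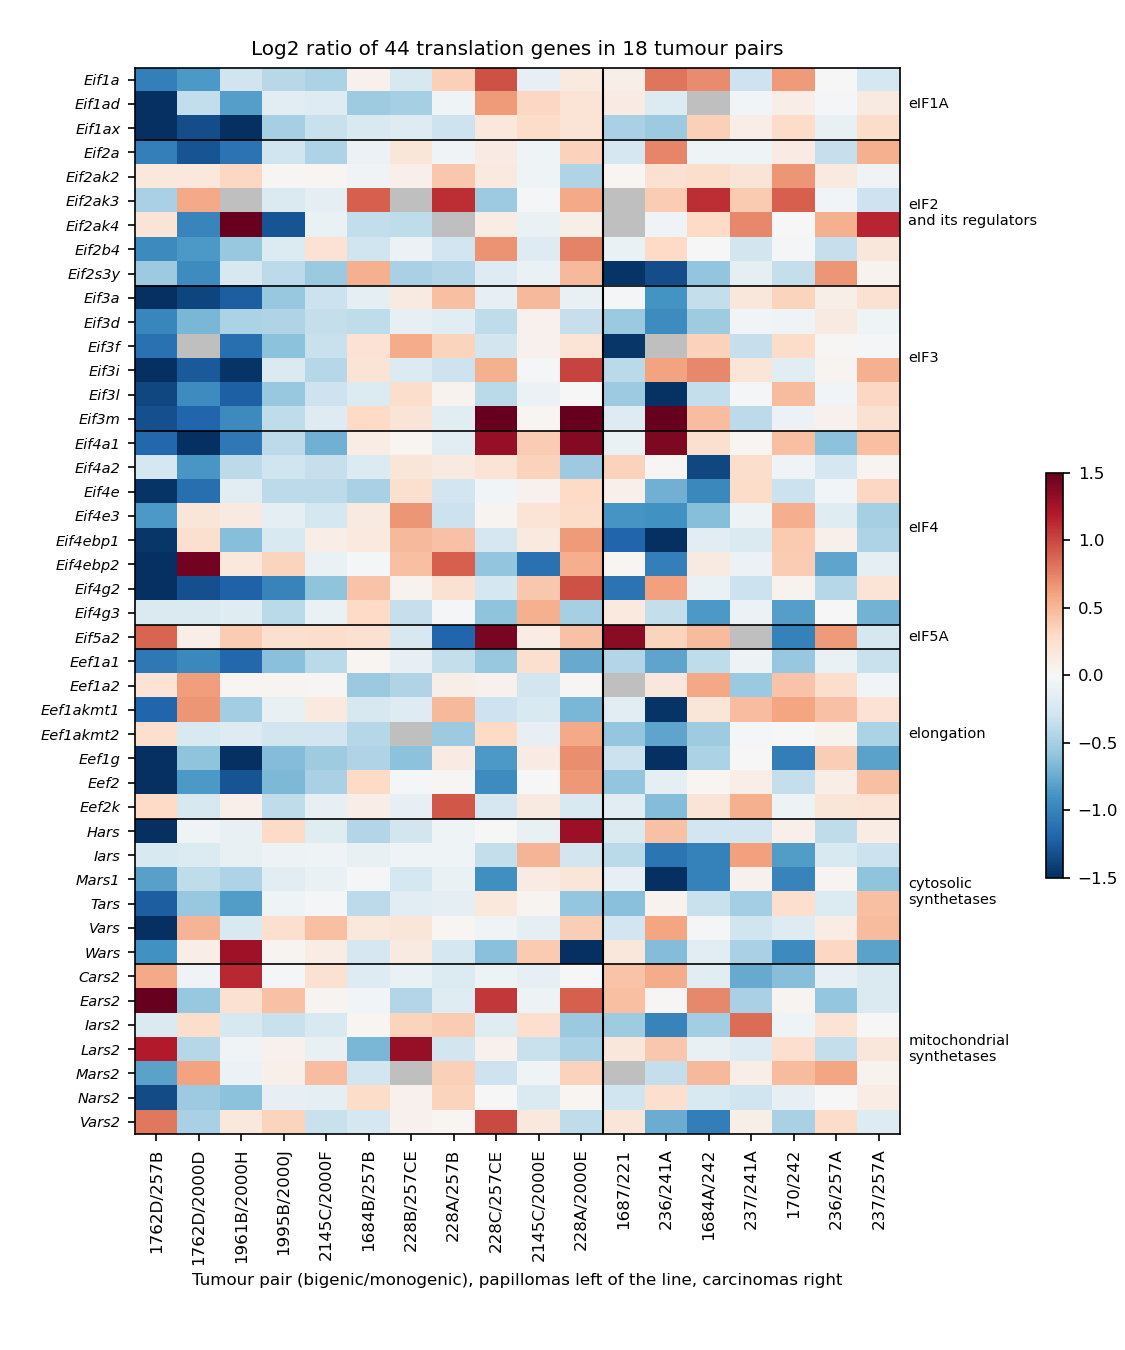
Log2 ratio of each of the 44 genes (rows, grouped by role) in each of 18 tumour pairs (columns, ordered within a class by the median of the members), red positive and blue negative, with the colour ending at -1.5 and 1.5 and grey for a missing value. The darkest blue is in the papilloma pairs 1762D/257B and 1762D/2000D and in the pair of 1961B, and the mitochondrial synthetases in the lowest rows take less part in it.

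The member with the smallest p in papillomas and the one with the lowest fitted value, Eef1a1 and Eef1g, are both elongation factors. Of 7 elongation genes 6 were negative in papillomas, 3 of them at an unadjusted p under 0.05, and 4 of 7 in carcinomas, 0 of them at that level. Of all genes, 46.1% were negative in papillomas and 50.9% in carcinomas, with 5.47% and 6.38% negative at that level. These shares are also the background for the counts by role below. Eef1a1, the main carrier of charged tRNA, ran from -1.17 to 0.24 over 11 papilloma pairs with a median of -0.57, and was negative in 9. Its fitted value was -0.45 ± 0.12 (SE, n = 11; limma adjusted p = 0.197). In carcinomas it ran from -0.79 to -0.07 with a median of -0.38, below 0 in all 7 pairs, and its fitted value was -0.32 ± 0.16 (SE, n = 7; limma adjusted p = 0.468). The papilloma values enclosed those of the carcinomas, and the difference was 0.13 ± 0.20 (SE).

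Eef1g, a subunit of the exchange factor that recharges eEF1A with GTP, had the lowest papilloma value of all 44 genes, -0.54 ± 0.20 (SE, n = 11; limma adjusted p = 0.358). It ran from -2.0 to 0.70 with a median of -0.60, and the lowest pairs were 1762D/257B at -2.0 and papilloma 14 at -1.85. In carcinomas it ran from -1.51 to 0.37 and was negative in 6 of 7 pairs. Eef2, the translocase, ran from -2.46 to 0.65 in papillomas with a median of -0.49, and its fitted value was -0.39 ± 0.19 (SE, n = 11; limma adjusted p = 0.510). In carcinomas Eef2 lay about 0, from -0.59 to 0.46, with a fitted value of -0.02 ± 0.23 (SE, n = 7).

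Eef1a2, the eEF1A isoform of muscle and neurons, stood close to 0. It was positive in 8 of 11 papilloma pairs, from -0.55 to 0.63 with a median of 0.03, and its fitted value was -0.05 ± 0.13 (SE, n = 11). In the 6 carcinoma pairs that measured it the fitted value was 0.07 ± 0.16 (SE). Probes for Eef1a1 and Eef1a2, whose coding sequences are close, can share signal, and the probe sequences were not used here. Eef2k, the kinase that inhibits eEF2, had fitted values of 0.08 ± 0.13 in papillomas and 0.10 ± 0.16 in carcinomas (SE). The methyltransferases of eEF1A, Eef1akmt1 and Eef1akmt2, stood at -0.15 and -0.16 in papillomas and at 0.13 and -0.26 in carcinomas.

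In the repeat hybridisations the sign of Eef1a1 and Eef1g changed with the dye orientation. In the 3 papilloma pairs the arrays with the bigenic tumour in Cy3 lie in the second range of experiment numbers. Those with it in Cy5 lie in the third, so dye and range cannot be told apart there. The 2 carcinoma pairs were run both ways within the second range. In the 5 pairs run both ways, Eef1a1 was negative on all 5 arrays with the bigenic tumour in Cy3 (mean -0.45) and positive on all 5 with it in Cy5 (mean 0.20). In 228A/257B it was -0.91 in the first orientation and 0.20 in the second, and in 236/257A it was -0.44 and 0.23. Eef1g likewise was negative on 5 of 5 arrays (mean -0.64) and positive on 5 of 5 (mean 0.42). Before turning, the deposited ratio therefore had one sign on all 10 arrays for both genes, whichever tumour was in which dye. Of the 31 members measured on all 10 arrays these were the 2 that behaved so (6.45%), against 1.26% of all genes, and 0 members kept one sign by tumour on all 10, against 0.402% of all genes.

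Over the whole series, 18 arrays had the bigenic tumour in Cy3 and 5 in Cy5, so the dyes were not balanced. Eef1a1 was negative on 17 of the 18 and on 0 of the 5. With a gene-specific dye term its fitted value was -0.25 ± 0.12 in papillomas and -0.12 ± 0.15 in carcinomas (SE; limma adjusted p = 0.769 and 0.998), and that of Eef1g was -0.21 ± 0.20 and -0.10 ± 0.23 (SE). Mars1 was negative on 5 of 5 repeat arrays in Cy3 (mean -0.36) and positive on 4 of 5 in Cy5 (mean 0.24), and Eif3d on 4 of 5 in each (means -0.41 and 0.18). Tars differed from them: it was negative on 5 of 5 (mean -0.20) and on 4 of 5 (mean -0.37), and with the dye term its papilloma value was -0.38 ± 0.15 (SE; limma adjusted p = 0.606). Across the members, the share on the same side in both orientations of a pair ran from 39.5% to 51.3%, and across all genes from 46.2% to 55.6%.

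**Figure D2:**
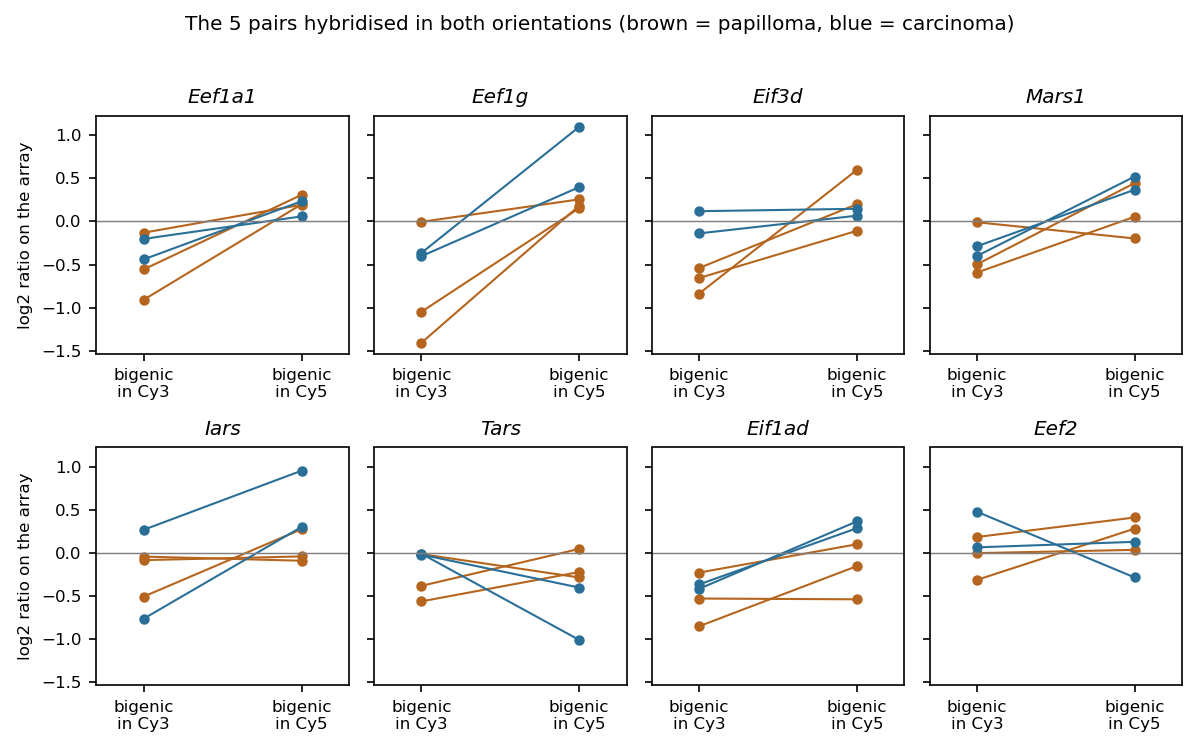
Log2 ratio of 8 genes on the arrays of the 5 pairs hybridised both ways, with the bigenic tumour in Cy3 on the left and in Cy5 on the right, each line being 1 pair (brown papilloma, blue carcinoma). A gene that follows the tumour gives level lines, whereas Eef1a1 and Eef1g go from below 0 on all 5 arrays to above 0 on all 5.

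Among the initiation factors, eIF1A and its relatives were negative in papillomas and about 0 in carcinomas. Eif1ax, the X-linked eIF1A gene, ran from -1.95 to 0.28 over 11 papilloma pairs with a median of -0.31. The lowest were 1762D/257B at -1.95, papilloma 14 at -1.54 and 1762D/2000D at -1.33, and the other 8 pairs lay at -0.50 or above. Its fitted value was -0.48 ± 0.17 (SE, n = 11; limma adjusted p = 0.350), or -0.27 without bigenic 1762D. In carcinomas it ran from -0.54 to 0.36 with a fitted value of -0.01 ± 0.20 (SE, n = 7), and the difference of 0.47 ± 0.27 (SE; limma adjusted p = 0.721) had the smallest p of any member for that comparison.

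Eif1ad, a gene of the eIF1A-like domain family, ran from -1.60 to 0.63 in papillomas with a median of -0.20 and a fitted value of -0.30 ± 0.14 (SE, n = 11; limma adjusted p = 0.497). Its 6 carcinoma pairs lay between -0.20 and 0.13, inside the papilloma range. Eif1a stood at -0.12 ± 0.15 in papillomas and 0.15 ± 0.18 in carcinomas (SE), and the near-identical Eif1a and Eif1ax can share probe signal.

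Of 6 eIF3 subunits 5 were negative in papillomas, 2 at an unadjusted p under 0.05, and 4 in carcinomas, 0 at that level. The shares over all genes were 46.1% negative and 5.47% at that level in papillomas, and 50.9% and 6.38% in carcinomas. Eif3d, the subunit that can itself bind the cap of some mRNAs, was negative in 10 of 11 papilloma pairs, from -0.97 to 0.06 with a median of -0.38. Its fitted value was -0.35 ± 0.11 (SE, n = 11; limma adjusted p = 0.250). In carcinomas it was negative in 6 of 7 pairs, from -0.94 to 0.13, at -0.22 ± 0.14 (SE). Eif3l stood at -0.34 ± 0.16 in papillomas and -0.19 ± 0.20 in carcinomas, and Eif3a, the scaffold subunit, at -0.29 ± 0.17 and -0.02 ± 0.22 (SE). Eif3i ran from -1.97 to 1.01 in papillomas, negative in 8 of 11, and from -0.40 to 0.72 in carcinomas, positive in 5 of 7. The difference for Eif3i was 0.51 ± 0.30 (SE; limma adjusted p = 0.734), with ranges that overlap. Eif3f and Eif3m had fitted values of -0.08 and 0.03 in papillomas.

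Of 8 genes of the eIF4 group 5 were negative in papillomas (46.1% of all genes) and 7 in carcinomas (50.9%). Eif4e, the cap-binding protein, ran from -1.48 to 0.30 in papillomas with a median of -0.28, and its fitted value was -0.31 ± 0.15 (SE, n = 11; limma adjusted p = 0.510). In carcinomas it ran from -0.96 to 0.31 with a fitted value of -0.13 ± 0.18 (SE, n = 7). Eif4ebp1, the 4E-BP that holds eIF4E back, was positive in 7 of 11 papilloma pairs (-1.45 to 0.64, median 0.14) and negative in 5 of 7 carcinoma pairs (-1.52 to 0.39, median -0.21). Its fitted values were 0.05 ± 0.17 and -0.36 ± 0.21, and the difference was -0.41 ± 0.27 (SE; limma adjusted p = 0.786). So neither the binding partner nor the inhibitor separated the classes beyond the spread between pairs.

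Eif4g3, an eIF4G scaffold, was one of the 2 genes at an unadjusted p under 0.05 in carcinomas. It was negative in 6 of 7 pairs, from -0.86 to 0.15 with a median of -0.36, and its fitted value was -0.31 ± 0.15 (SE, n = 7; limma adjusted p = 0.458), or -0.16 without monogenic 242. In papillomas it was negative in 9 of 11 pairs and its fitted value was -0.13 ± 0.12 (SE). Eif4e3, an eIF4E relative, was negative in 6 of 7 carcinoma pairs (-0.91 to 0.55, median -0.50) and positive in 7 of 11 papilloma pairs (-0.86 to 0.66, median 0.13). Its fitted values were -0.32 ± 0.17 and 0.04 ± 0.13, and the difference was -0.36 ± 0.22 (SE; limma adjusted p = 0.742). The remaining eIF4 genes, Eif4a1, Eif4a2, Eif4ebp2 and Eif4g2, lay between -0.26 and 0.09 in papillomas and between -0.20 and 0.14 in carcinomas. Eif5a2 stood at 0.20 ± 0.19 and 0.25 ± 0.27 (SE).

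**Figure D3:**
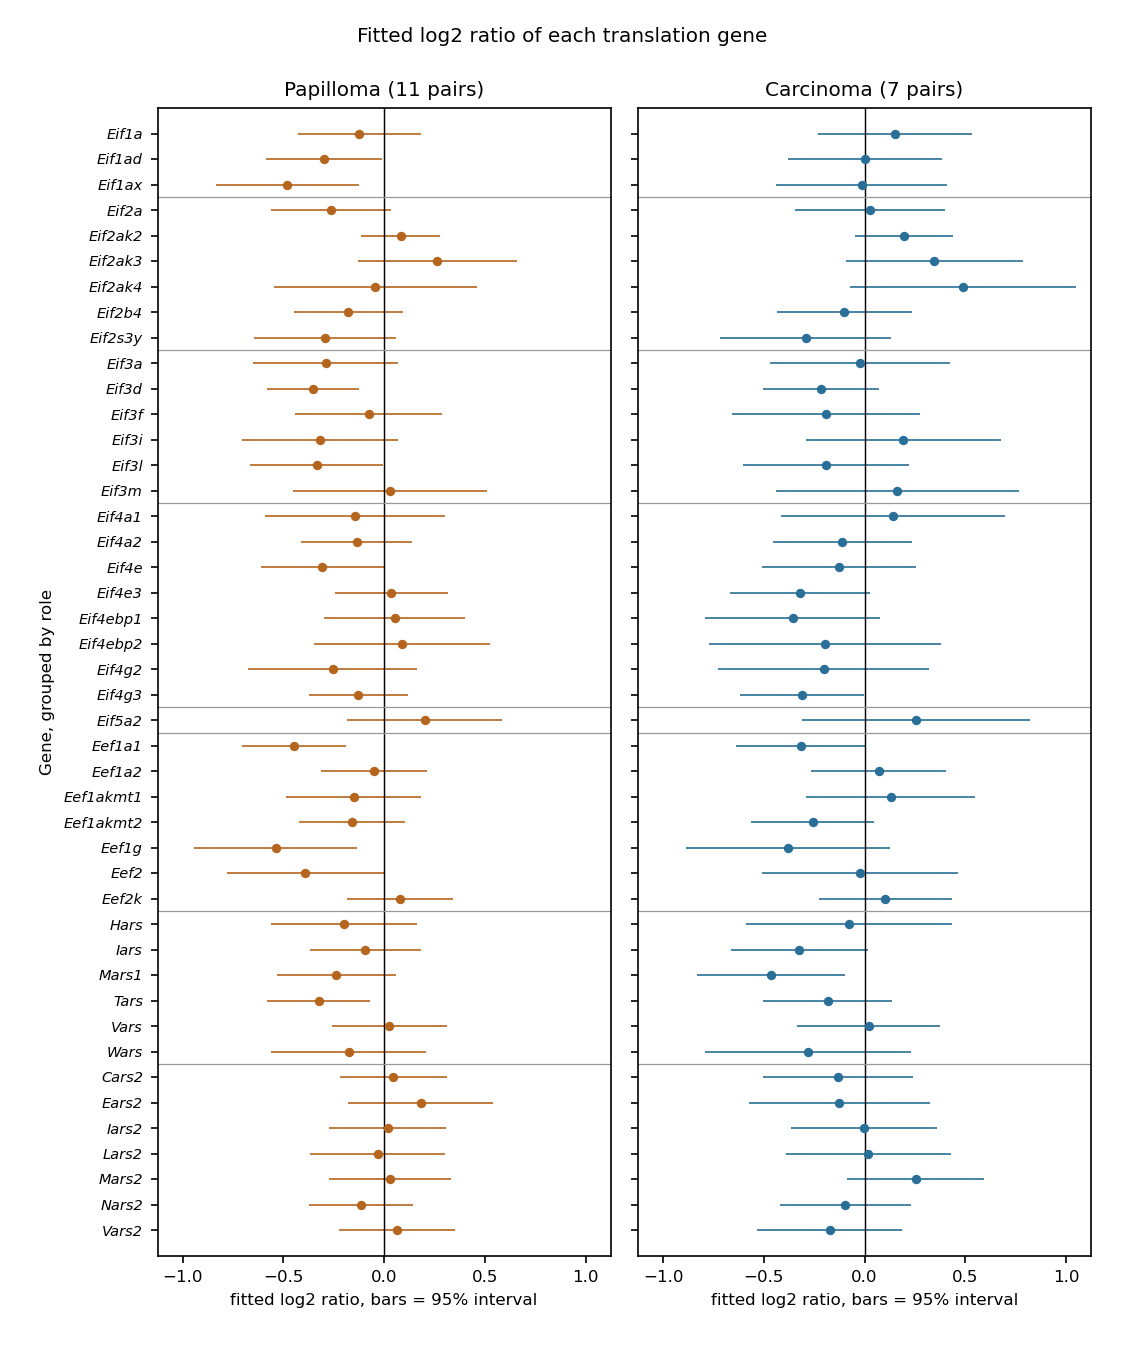
Fitted log2 ratio of each gene in papillomas (left, 11 pairs) and carcinomas (right, 7 pairs), with 95% intervals from limma before adjustment, and grey lines between roles. In papillomas the intervals of 9 genes lie wholly below 0, among them Eef1a1, Eef1g and Eif3d, and in carcinomas those of Mars1 and Eif4g3.

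Genes of eIF2 and its regulators lay on both sides of 0. Eif2a, an alternative initiator-tRNA carrier, and Eif2b4, a subunit of the exchange factor for eIF2, stood at -0.27 ± 0.14 and -0.18 ± 0.13 in papillomas and at 0.03 ± 0.18 and -0.10 ± 0.16 in carcinomas (SE). The kinase genes Eif2ak2 (PKR), Eif2ak3 (PERK) and Eif2ak4 (GCN2) were positive in carcinomas, at 0.20 ± 0.12, 0.35 ± 0.21 and 0.49 ± 0.27 (SE), with limma adjusted p-values of 0.566, 0.576 and 0.515, and at 0.08, 0.26 and -0.04 in papillomas. Eif2ak4, the kinase that senses uncharged tRNA, ran from -0.05 to 1.14 over 6 carcinoma pairs with a median of 0.42. In papillomas it ran from -1.29 to 2.43 over 10 pairs with a median of -0.10, so the carcinoma values lay inside the papilloma range. Its carcinoma value was 0.26 without bigenic 237. Eif2ak2 was positive in 6 of 7 carcinoma pairs and 8 of 11 papilloma pairs. Eif2ak3 was positive in 4 of 6 carcinoma pairs but negative in 5 of the 9 papilloma pairs that measured it. Its papilloma values ran from -0.54 to 1.11 with a median of -0.02.

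Eif2s3y, the Y-linked copy of the eIF2 gamma subunit, ran from -0.94 to 0.53 in papillomas and from -1.47 to 0.66 in carcinomas. The sex of the animals is not given in the labels, and the Eif2s3y probe can also read the X-linked copy. In 1687/221, where Eif2s3y was lowest, the sex-linked genes Kdm5d and Xist stood at -1.21 and 1.54. In 1762D/257B they stood at 2.92 and 0.33, with Eif2s3y at -0.55. The part of sex in these values was not tested. Eif2s1, the eIF2 alpha subunit, was not measured by a single-symbol probe.

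By fitted value, cytosolic synthetases stood mostly below 0 in papillomas, while mitochondrial ones lay near 0 with 5 of 7 above it. Of those 5, Cars2 and Iars2 were negative in 7 and 6 of 11 papilloma pairs, with pair medians of -0.06 and -0.18. Of 6 cytosolic synthetases 5 were negative in papillomas and 5 in carcinomas. Among the 5 in papillomas, Wars was positive in 6 of 11 pairs, with a pair median of 0.04. Of 7 mitochondrial synthetases 2 were negative in papillomas (46.1% of all genes) and 5 in carcinomas (50.9%), and their medians were 0.03 and -0.10. The test of the difference between these sets was not made. Tars, threonyl-tRNA synthetase, was negative in 9 of 11 papilloma pairs, from -1.24 to 0.16 with a median of -0.17, and its fitted value was -0.32 ± 0.12 (SE, n = 11; limma adjusted p = 0.394). In carcinomas it was negative in 4 of 7 pairs, from -0.63 to 0.45, at -0.18 ± 0.15 (SE).

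Mars1, methionyl-tRNA synthetase, had the lowest carcinoma value, -0.47 ± 0.18 (SE, n = 7; limma adjusted p = 0.301), or -0.31 without monogenic 242. It ran from -1.64 to 0.06 with a median of -0.61, and the 2 pairs above 0, at 0.04 and 0.06, were those hybridised in both orientations. In papillomas it was negative in 9 of 11 pairs, from -0.93 to 0.18 with a median of -0.16, at -0.24 ± 0.14 (SE). Iars, isoleucyl-tRNA synthetase, was negative in 6 of 7 carcinoma pairs, from -1.10 to 0.61 with a median of -0.40, at -0.32 ± 0.16 (SE, n = 7; limma adjusted p = 0.486), and its value was -0.63 without bigenic 237 and -0.15 without monogenic 242. In papillomas it was negative in 10 of 11 pairs but closer to 0, with a median of -0.11. On the arrays with the bigenic tumour in Cy3 alone, Iars and Mars1 were the 2 members past an adjusted p of 0.05 in carcinomas (limma, lowest 0.0274), where 209 of 6413 genes passed (3.26%), and in the pairs run both ways they stood at 0.19 and 0.05.

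Hars, Vars and Wars, for histidine, valine and tryptophan, stood at -0.20, 0.03 and -0.18 in papillomas and at -0.08, 0.02 and -0.28 in carcinomas. Their extremes were in single pairs: Hars at -2.34 and Vars at -1.53 in 1762D/257B, and Wars at -2.08 in 228A/2000E. Among mitochondrial synthetases Mars2 had the highest carcinoma value, 0.25 ± 0.16 (SE), and Ears2 the highest papilloma value, 0.18 ± 0.17 (SE). Nars2 was read by 2 probes that gave -0.0023 ± 0.14 and -0.29 ± 0.18 in papillomas (SE).

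**Figure D4:**
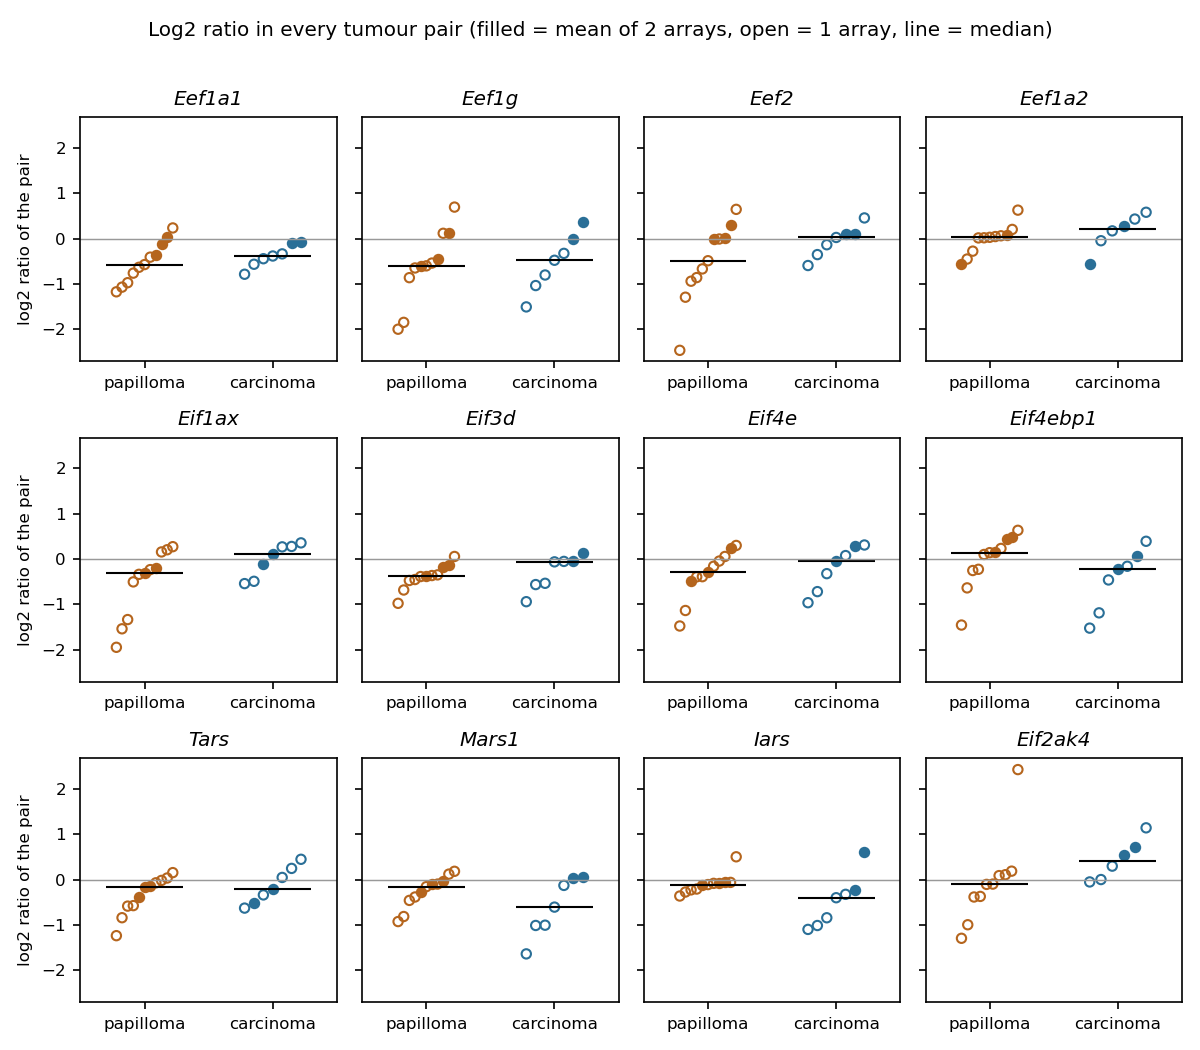
Log2 ratio of 12 genes in every tumour pair, papillomas brown and carcinomas blue, filled for the mean of 2 arrays and open for 1 array, with the median as a black line. In carcinomas Eef1a1 is below 0 in all 7 pairs, and Iars, Mars1 and Eif2ak4 have values that overlap those of papillomas.

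The median of the members was negative in 9 of 11 papilloma pairs, and the lowest values were in a few of them. It was -0.997 in 1762D/257B, where 22 of 44 genes lay below -1 (19.8% of all genes did), -0.49 in 1762D/2000D with 8 of 43, and -0.29 in papilloma 14 with 11 of 43. The pairs 2145C/2000F and 1995B/2000J had medians of -0.19 and -0.22 with 33 of 44 genes negative in each. Of all genes, 4.20% in 1762D/2000D and 5.71% in papilloma 14 lay below -1. At the other end the median was 0.20 in 228A/2000E and 0.03 in 2145C/2000E, so pairs of the same class lay on opposite sides. In carcinomas the medians ran from -0.20 to 0.04, with 8 of 43 genes below -1 in 236/241A (18.6%), where 14.1% of all genes were.

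Experiment numbers in the labels fall into 3 ranges, and the papilloma median differed between them: -0.21 on the 5 arrays of the first (32 of 44 genes negative), -0.01 on the 4 of the second (23 of 44) and -0.12 on the 5 of the third (33 of 44). Within the first range 17 of 44 members had an unadjusted p under 0.05, where 22.5% of all genes did. Within the second range it was 5 of 43, 3 of them negative, where 9.44% of all genes did. Within the third it was 0 of 40, where 2.60% of all genes did. Without the first range and papilloma 2, 1 gene at that level (7.06% of all genes) and a median of 0.02 were left, and 21 of 44 genes were negative. All 3 papilloma arrays with the bigenic tumour in Cy5 were in the third range. The carcinoma arrays were 8 in the second range (median -0.06) and 1 in the third (-0.20).

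**Figure D5:**
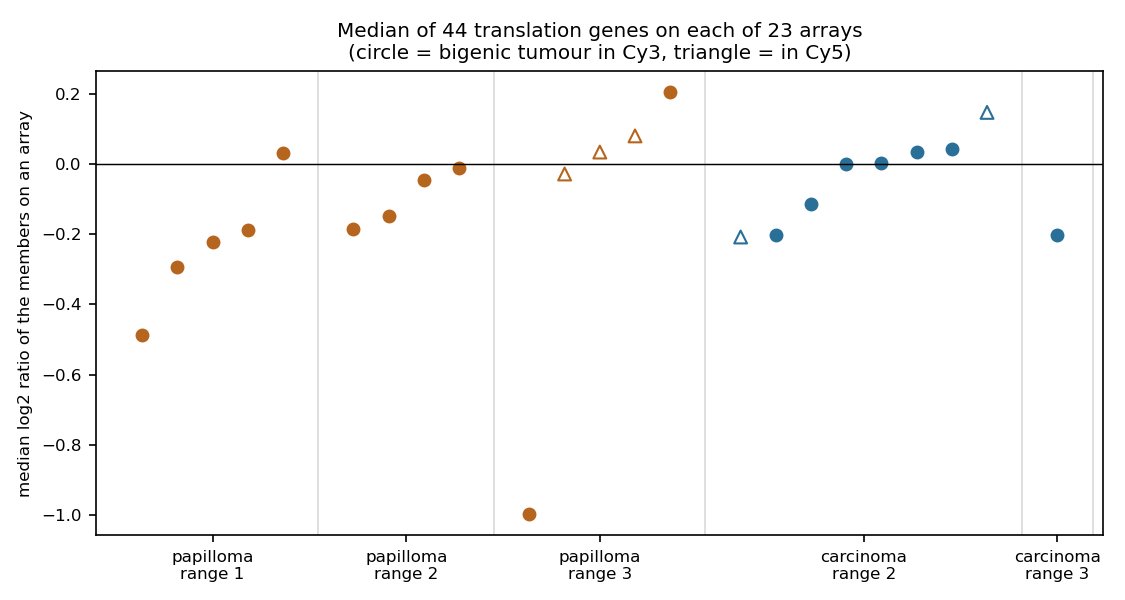
Median log2 ratio of the members on each of the 23 arrays, by tumour class and range of experiment numbers, as circles where the bigenic tumour was in Cy3 and triangles where it was in Cy5. The array papilloma 2 lies lowest at -0.997. In papillomas 4 of 5 arrays of the first range, 4 of 4 of the second and 2 of 5 of the third are below 0.

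A steady lean over pairs was also counted. In papillomas 8 members were negative in at least 80% of their pairs (18.2%, background 7.47%): Eef1a1, Eif2s3y, Eif3d, Eif4g3, Hars, Iars, Mars1 and Tars. In carcinomas 7 were (15.9%, background 9.81%): Eef1a1, Eef1akmt2, Eef1g, Eif3d, Eif4e3, Eif4g3 and Iars. On the positive side there was 1 in papillomas (2.27%, background 6.38%), Eif5a2, and there were 3 in carcinomas (6.82%, background 9.98%), Eif2ak2, Eif2ak4 and Mars2. Pairs that share a tumour or a dye orientation are not independent in these counts.

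The genes around this machinery were listed with earlier results of these data known, and 0 of them passed an adjusted p of 0.05 in either class (limma). Of all genes tested, 46.1% were negative in papillomas and 50.9% in carcinomas, with 5.47% and 6.38% negative at an unadjusted p under 0.05. These shares are the background for the lists below. All 24 genes of ribosome biogenesis were negative in papillomas, with a median of -0.27 and 12 at an unadjusted p under 0.05. In carcinomas 12 of 24 were negative, with 0 at that level. By pair their papilloma median ran from -1.10 in 1762D/257B to 0.03 in 2145C/2000E. It was -0.02, -0.08 and -0.20 in 228A/257B, 228B/257CE and 1684B/257B, run both ways. The lowest by p were Gnl3, a nucleolar GTP-binding protein, at -0.53 ± 0.14, Wdr12 at -0.49 ± 0.14 (negative in 11 of 11 pairs) and Nop58 at -0.64 ± 0.20 (SE, n = 11; limma adjusted p = 0.181, 0.197 and 0.244). Ribosomal protein genes were negative in 22 of 24 in papillomas, with 5 at an unadjusted p under 0.05 and a median of -0.29, and in 18 of 24 in carcinomas, with 0 and a median of -0.07. By range their papilloma median was -0.69, 0.03 and 0.01. By pair it was -1.18 in 1762D/257B, of the third range, and 0.19 in 2145C/2000E, of the first. Rps23, Rpl36a and Rpl6 stood lowest by p, at -0.39 ± 0.16, -0.42 ± 0.18 and -0.38 ± 0.17 (SE).

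Translation factors with other names were negative in 15 of 16 in papillomas, 4 at an unadjusted p under 0.05, and in 10 of 16 in carcinomas, 1 at that level. Examples are the release factor gene Gspt2 at -0.28 ± 0.10, the ribosome recycling factor Abce1 at -0.39 ± 0.16 and the mitochondrial recycling factor Mrrf at -0.26 ± 0.12 in papillomas (SE). In carcinomas Farsb, a phenylalanyl-tRNA synthetase subunit, was negative in 7 of 7 pairs at -0.53 ± 0.19 (SE; limma adjusted p = 0.271).

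Targets of the eIF2 stress response were negative in 10 of 14 in both classes, 2 at an unadjusted p under 0.05 in each. Atf4 itself was -0.64 ± 0.18 in carcinomas (SE, n = 7, negative in 7 of 7 pairs; limma adjusted p = 0.172) and -0.13 ± 0.15 in papillomas. Slc7a5, a large neutral amino acid transporter subunit, was -0.48 ± 0.20 and -0.43 ± 0.16, and Hspa5, an endoplasmic reticulum chaperone, was -0.77 ± 0.21 in papillomas (SE; limma adjusted p = 0.190). Genes of mTOR signalling were negative in 6 of 11 in papillomas and 4 of 11 in carcinomas, with 0 at an unadjusted p under 0.05 in either, and Rraga stood at -0.20 ± 0.12 in papillomas (SE).

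Marker genes of the cell types in such a tumour were not centred on 0 either. Keratinocyte markers were negative in 11 of 12 in papillomas (median -0.23) and in 9 of 12 in carcinomas (-0.32). Skeletal muscle markers were positive in 15 of 16 in papillomas (0.54) and 14 of 16 in carcinomas (0.28). Macrophage markers were positive in 12 of 13 (0.24) and 11 of 13 (0.52). At an unadjusted p under 0.05, 8 macrophage markers were positive in carcinomas and 0 in papillomas. Keratinocyte markers at that level were 6 negative and 1 positive in papillomas, and 4 negative and 2 positive in carcinomas. Muscle markers at that level were 2 positive in papillomas and 1 in carcinomas. Of all genes, 4.32% in papillomas and 4.44% in carcinomas were positive at that level, and 5.47% and 6.38% negative. By pair, the keratinocyte median ran from -0.73 to 0.22 and the muscle median from -0.18 to 1.80 in papillomas, and from -0.64 to -0.02 and from -1.21 to 2.41 in carcinomas. In 1762D/257B, papilloma 14 and 1762D/2000D, where the members were lowest, the keratinocyte medians were -0.73, -0.69 and -0.63. Other pairs had low keratinocyte medians with member medians close to 0. In 228C/257CE these were -0.39 and -0.05, and in the carcinoma pair 170/242 they were -0.64 and -0.0005. Fibroblast markers were also far from 0 in 1762D/257B, with a median of -2.875. The part of these cell types in the members' values was not tested.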

How the data were processed

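Tumour RNA was extracted with TRIzol and a column kit and labelled through aminoallyl cDNA with Cy3 or Cy5, per the labels' protocols. The authors deposited a table of 1 signed value per probe and array, taken here as log2 ratios. The base of the logarithm, the numerator, the scanner and the normalization were not given in the sources used here. No depth applies to arrays, and the number of pairs limits the precision.

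Values were turned to one orientation by the labelled dyes, centred on each array's median and averaged over probes of a gene and over arrays of the same 2 extracts. Genes measured in at least 8 papilloma and 5 carcinoma pairs (6413) were fitted with limma 3.58.1 in R 4.3.3, with 1 mean per class and weights by the number of arrays, and adjusted by the Benjamini-Hochberg method at 0.05. The code was tested on simulated data. Arrays of one orientation correlated at r = -0.33 (papilloma 1 and papilloma 2) to 0.55 over all probes, a description across probes.

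Some pairs share a tumour, and every p-value measures only how far pairs differ among themselves, which may be technical in part. The members and lists were chosen with earlier results of these data known. Named are members past the threshold, the 6 of smallest p in each comparison, Eif4e, Eif4ebp1, Eef2, Eef1a1 and Eef1a2, and up to 3 genes of smallest p per pathway list; other members are given by role, and the genes of the repeat hybridisations and the extremes of single pairs were picked after their values were seen. Adipocyte, endothelium, fibroblast, lymphocyte and neutrophil markers had papilloma medians of 0.30, -0.06, -0.18, 0.07 and 0.21 and carcinoma medians of 0.39, 0.17, 0.33, 0.13 and -0.23. Alternatives are given in the closing section. Promoter sequences came from RefSeq by gene identifier.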

Additional observations from a re-analysis of the deposited data

How the results depend on the processing

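The count of members past an adjusted p of 0.05 (limma) was 0 in each comparison and stayed 0 in every alternative but 1: with the bigenic tumour in Cy3 only it became 1 in papillomas (Eef1a1; 15 of all genes) and 2 in carcinomas (209 of all genes). Within the third range the carcinoma median was -0.20, from 1 array. Signs reversed for Iars (0.19) and Mars1 (0.050) in carcinomas in the pairs run both ways, and within the third range for Eif4g3 in carcinomas (0.15) and for Eif1ax (-0.060) and Eif3i (-0.21) in the difference. The members' median difference, 0.08, was negative in the pairs run both ways (-0.015), with range as a term (-0.03), within the second range (-0.06), within the third (-0.03), without the first range (-0.013) and without it and papilloma 2 (-0.09). The causes were not tested. Leaving out each tumour in turn, the count past an adjusted p of 0.05 stayed 0, and the members' median ran from -0.18 to -0.06 in papillomas, from -0.12 to -0.05 in carcinomas and from 0.0092 to 0.14 in the difference. The leave-one-out counts at an unadjusted p under 0.05 ran from 3 to 13, from 1 to 4 and from 0 to 2. Of all genes, 5.61% to 11.6%, 5.74% to 15.6% and 6.41% to 10.4% were at that level in these fits. Carcinomas gave 8 members at an unadjusted p under 0.05 for unweighted pairs (16.05% of all genes) and 9 with the bigenic tumour as the replicate (19.8%). The array number in the titles as a replicate block gave a median difference of 0.02 and 0 members past the threshold; these numbers only count arrays and pair nothing. The fits without papilloma 2 and without the first range were chosen after seeing the data.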
